A study of Mus musculus with 8 samples.

Results

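B cell transcripts are the messages that mark B lymphocytes and the antibody-secreting cells derived from them. They were followed here in RNA from adipose tissue macrophages selected for F4/80, a surface protein of mouse macrophages. The 9 genes were chosen by name, as a list of genes of the B cell receptor, its regulators and antibody chains: Cd79a, Cd79b, Ms4a1, Cd22, Blk, Pax5, Ighm, Ighd and Jchain. All 9 are among the 15867 genes of the deposited table, and all 9 passed the filter on low values (a mean normalized count of at least 10). The 8 libraries came from mice fed a high-fat diet for 20 weeks. The 4 control libraries had the genotype Mirc11 fl/fl Mirc22 fl/fl Lyz2+/+. The 4 knockout libraries had Mirc11 fl/fl Mirc22 fl/fl Lyz2Cre/Cre. Both groups thus carried the loxP-flanked alleles of the 2 microRNA clusters, and the effects of losing the clusters, of Cre and of losing Lyz2 cannot be told apart. Age was not given in the sources used here, and the labels do not say whether each replicate was 1 animal. The p-values therefore measure the spread between these samples, which may be partly technical.

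A B cell displays an antibody on its surface as its antigen receptor. The membrane antibody, built from heavy chains such as those of Ighm (IgM) or Ighd (IgD), carries no signalling tail of its own and signals through the paired proteins of Cd79a and Cd79b. Cd22 dampens that signal, kinases such as Blk relay it, Pax5 keeps the B cell programme on, and Jchain links secreted IgM or IgA into polymers once cells secrete antibody. Obese adipose tissue is known to hold B cells beside its macrophages. Lyz2-Cre is active in myeloid cells, so that B cells are not the cells in which the clusters are meant to be deleted. In bulk RNA, a change in the number of B cells cannot be told apart from a change in the RNA that each cell holds.

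Mature microRNAs of the clusters are shown, as far as the sequence table holds them, because they define what the knockout was designed to remove. They are the RefSeq sequences of build GRCm38.p6, with the seed (bases 2 to 8 from the 5′ end) in capitals. miR-27a-3p and miR-27b-3p share 1 seed.
mmu-miR-23a-3p: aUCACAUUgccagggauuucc
mmu-miR-27a-3p: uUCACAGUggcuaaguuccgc
mmu-miR-27b-3p: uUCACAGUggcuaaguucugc
mmu-miR-24-3p: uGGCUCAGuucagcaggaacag

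The 7-base complement of a seed was searched in each gene's 3′ untranslated region (the longest one annotated), which has at least 30 bases for all 9 B cell transcripts. AATGTGA, the miR-23 match, was in Cd22, as in 17.6% of the 14861 genes with such a region. ACTGTGA, the miR-27 match, was in Pax5, against 19.4% of genes. CTGAGCC, the miR-24 match, was in Pax5 and Blk, against 21.1% of genes. Pax5 has the longest region searched, 6749 bases against 2812 in Cd22 and 466 to 1990 in Cd79a, Cd79b, Ms4a1, Blk, Ighd and Jchain. Ighm has 268 bases. A match is a description of letters and not a site of action.

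The table of RefSeq promoters, which runs from 250 bases before to 50 bases after each start, held 4 of the 9 genes: Cd79a, Cd22, Pax5 and Jchain. Their stretches before the start are shown for Cd79a, the promoter with the most motif matches, and for Jchain, the gene with the widest range of levels. The stretches lie before both the RefSeq start and the GENCODE gene span, are written 5′ to 3′ on the gene's strand, and carry motif matches in capitals. Cd79a is at chr7:24897247-24897380 (plus strand) and Jchain at chr5:88527898-88528147 (minus strand), both on GRCm38.p6.
Cd79a: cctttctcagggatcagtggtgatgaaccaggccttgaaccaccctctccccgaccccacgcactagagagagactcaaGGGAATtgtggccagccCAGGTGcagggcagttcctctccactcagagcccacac
Jchain: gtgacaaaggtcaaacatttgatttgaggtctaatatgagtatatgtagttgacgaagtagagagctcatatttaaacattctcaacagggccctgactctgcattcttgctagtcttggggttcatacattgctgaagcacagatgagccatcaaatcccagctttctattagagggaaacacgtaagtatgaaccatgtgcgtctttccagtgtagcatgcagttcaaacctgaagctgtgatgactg

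The capitals in Cd79a mark GGGAAT, part of an Ebf site, 171 bases before the start and the E-box CAGGTG 154 bases before it. The Ets letters AGGAAGT begin 55 bases before the Cd79a start, past the stretch shown. Searched on both strands, GGGAAT is in 13.1%, CAGGTG in 20.2% and AGGAAGT in 9.35% of the 32851 promoters of the same length. The E-box was also in the Cd22 promoter, 245 bases before the RefSeq start, and in the Jchain promoter, 5 bases after it, outside the stretch shown. The Cd22 promoter (chr7:30878979-30879278) lies wholly inside the GENCODE span of the gene, so its match is not upstream of that span. The octamer ATGCAAAT, found in 1.74% of promoters, was in none of the 4. No motif overlapped another.

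Values below are the authors' normalized gene counts. Differences are knockout minus control on the scale of log2(normalized count + 1) from limma, with two-sided Benjamini-Hochberg adjusted p over 15862 genes and a threshold of 0.05. Recovered read totals ran from 31789395 to 46621080 per library. Lyz2, which holds the Cre insertion, ran from 156727 to 204853 in control and from 174 to 273 in knockout libraries, so each library matched its label at this gene. Adgre1, the gene of F4/80, ran from 39565 to 54126 in control and from 37440 to 43035 in knockout libraries (difference -0.21, limma adjusted p = 0.346). Control replicate 4 and knockout replicate 1 stood apart for the B cell transcripts: they were the highest library of their group for 9 of 9, as they were for 1617 of all 15862 genes tested (10.2%). Results are therefore also given without these libraries. They were chosen for being the highest of their groups in these same genes, and leaving them out narrows the spread by construction. The SEs, intervals and p-values of that fit are therefore not an ordinary measure of precision.

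None of the 9 B cell transcripts passed the test between the groups, while 3.61% of all genes tested did, 1.24% (196) higher and 2.38% (377) lower in knockout. At an unadjusted p under 0.05 there was 1, Ighd, against 21.2% of all genes. The edgeR and DESeq2 tests on recovered reads also called 0 of 9, with Ighd the 1 gene at an unadjusted p under 0.05 in each. The 9 differences were all above 0, from 0.03 for Cd22 to 0.91 for Ighd, with a median of 0.50 beside 0.00 over all genes. This median rested in good part on knockout replicate 1: without it, the median was 0.19, and 7 of the 9 differences were above 0. It was 0.32 without control replicate 2, 0.72 without control replicate 4, and between 0.42 and 0.72 without any other single library. Control and knockout values overlapped for 9 of 9, and did not overlap for 13.7% of all genes. In a list of 9 genes that vary together, neither 0 calls nor 9 overlaps can be set apart from these shares. Without control replicate 4 and knockout replicate 1 together, the test again called 0 of 9, with a median difference of 0.44 and a lowest limma adjusted p of 0.158 (Ighd).

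Cd79a and Cd79b encode the signalling pair of the B cell receptor. Cd79a lies on chromosome 7 (mm10, 24897381 to 24902197). In the order of the replicate numbers, used throughout, it measured 176, 139, 138 and 299 in control and 540, 258, 181 and 183 in knockout libraries. Control replicate 4 and knockout replicate 1 were the highest of their groups, and the other 3 knockout libraries lay between 181 and 258, within the control range. The difference was 0.55 (SE 0.38, limma adjusted p = 0.450). Cd79b, on chromosome 11 (106311341 to 106314762), measured 220, 159, 197 and 396 in control and 509, 278, 244 and 280 in knockout libraries. The same libraries led each group, and the 3 other knockout libraries were above the 3 other control libraries. Its difference was 0.46 (SE 0.31, limma adjusted p = 0.438). Without the leading library of each group the values were 0.44 (SE 0.19, limma adjusted p = 0.351) for Cd79a and 0.49 (SE 0.15, adjusted p = 0.214) for Cd79b. Without knockout replicate 1 alone they were 0.20 and 0.22, and without control replicate 4 alone 0.79 and 0.72.

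Ms4a1 and Cd22 encode surface proteins. Ms4a1 (chromosome 19, 11249675 to 11266241), which encodes CD20, measured 174, 78.3, 108 and 190 in control and 294, 192, 131 and 180 in knockout libraries. Control replicate 1 lay near control replicate 4 here, and the groups overlapped between 131 and 190. The difference was 0.56 (SE 0.32, limma adjusted p = 0.361), and 0.35 without knockout replicate 1. Cd22 (chromosome 7, 30865402 to 30880342) measured 1729, 1398, 1433 and 2578 in control and 2263, 1518, 1674 and 1683 in knockout libraries. It was the 1 gene of the 9 whose highest library was a control, and its group means were 1784 ± 549 and 1784 ± 328 (SD, n = 4). Its difference was 0.03, with a 95% interval from -0.42 to 0.48, so a change of that size in either direction was not distinguishable here.

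Blk and Pax5 act inside the cell, as a Src-family kinase of the receptor and as the transcription factor that holds B cell identity. Blk (chromosome 14, 63372836 to 63417037) was the lowest of the 9 by count, with 36.0, 37.6, 45.5 and 68.9 in control and 107, 59.3, 31.9 and 56.7 in knockout libraries. These values rest on 30 to 122 reads, and the lowest of the 8 was a knockout library. The difference was 0.35 (SE 0.36, limma adjusted p = 0.617), and 0.06 without knockout replicate 1. Pax5 (chromosome 4, 44524757 to 44710487) measured 125, 96.6, 108 and 182 in control and 362, 163, 103 and 159 in knockout libraries. Apart from knockout replicate 1, its knockout values lay within the control range. The difference was 0.50 (SE 0.36, limma adjusted p = 0.463), and 0.16 without knockout replicate 1.

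Ighm, Ighd and Jchain belong to the antibody itself. Ighm (chromosome 12, 113418558 to 113422730) measured 8719, 6854, 9712 and 16366 in control and 23143, 10545, 9164 and 9922 in knockout libraries. The 3 lower knockout libraries lay within the range of the controls, and knockout replicate 1 stood above all others. The difference was 0.31 (SE 0.34, limma adjusted p = 0.649), and -0.00167 without knockout replicate 1. Ighd, which lies beside it (113406604 to 113416324) and is spliced from the same primary transcript, measured 119, 108, 169 and 278 in control and 504, 336, 214 and 209 in knockout libraries. All 4 knockout libraries were above control replicates 1 to 3, and control replicate 4 was above 2 of them. The difference was 0.91 (SE 0.36, limma unadjusted p = 0.0322, adjusted p = 0.194). It was 0.93 (SE 0.25, limma adjusted p = 0.158) without control replicate 4 and knockout replicate 1, and 0.65 without knockout replicate 1 alone. Jchain (chromosome 5, 88519809 to 88527891) measured 572, 323, 365 and 1261 in control and 2836, 642, 456 and 795 in knockout libraries, with the widest range of the 9. Its difference was 0.74 (SE 0.60, limma adjusted p = 0.522), with a 95% interval from -0.61 to 2.08, and 0.19 without knockout replicate 1.

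**Figure D1:**
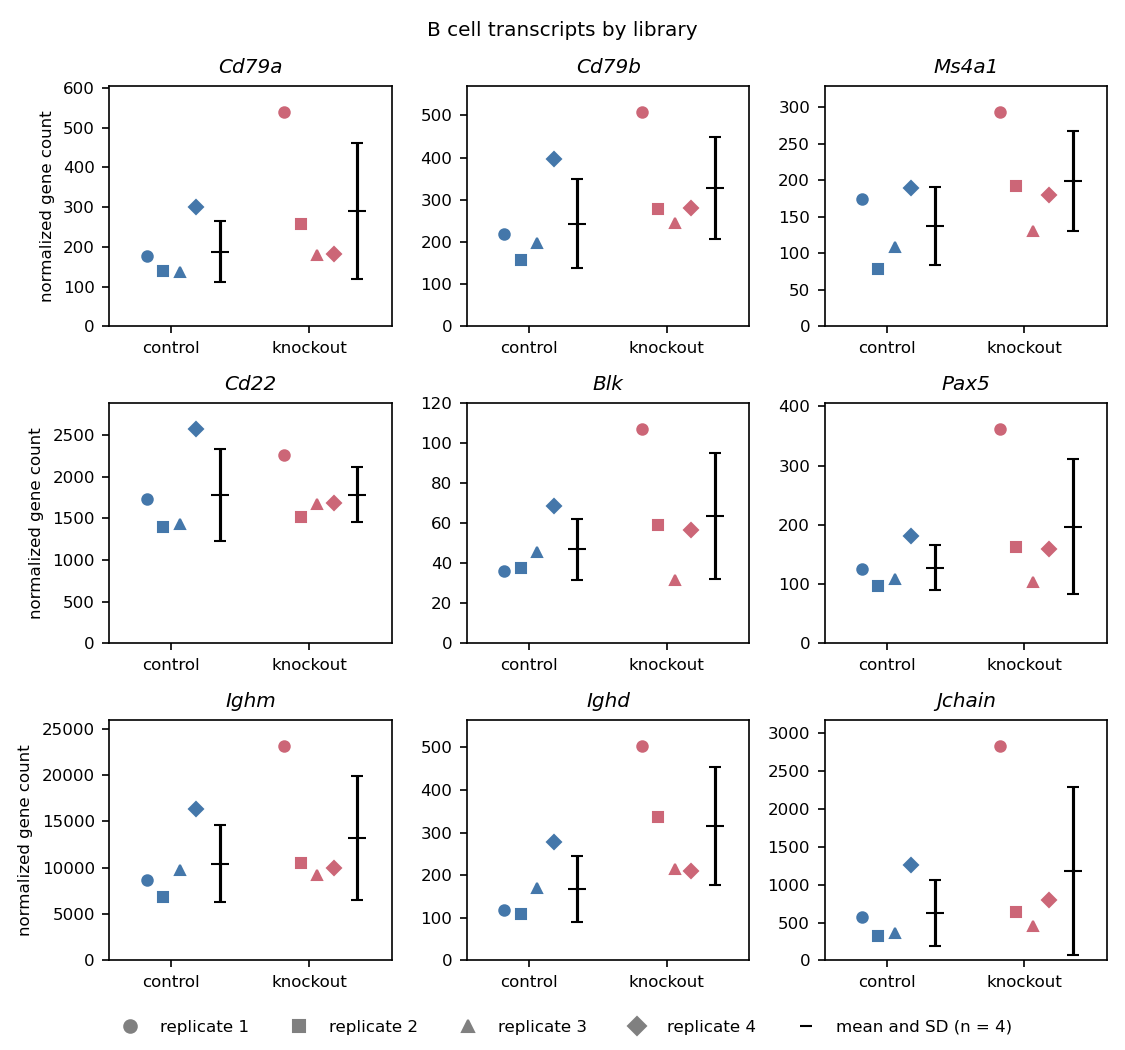
Normalized gene count (vertical axis, linear from 0) of each of the 9 B cell transcripts in the 4 control (blue) and 4 knockout (red) libraries, with symbols for replicate numbers and a black mean with SD for each group (n = 4). Control replicate 4 and knockout replicate 1 are the highest of their groups in all 9 panels, and the groups overlap in each panel.

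**Figure D2:**
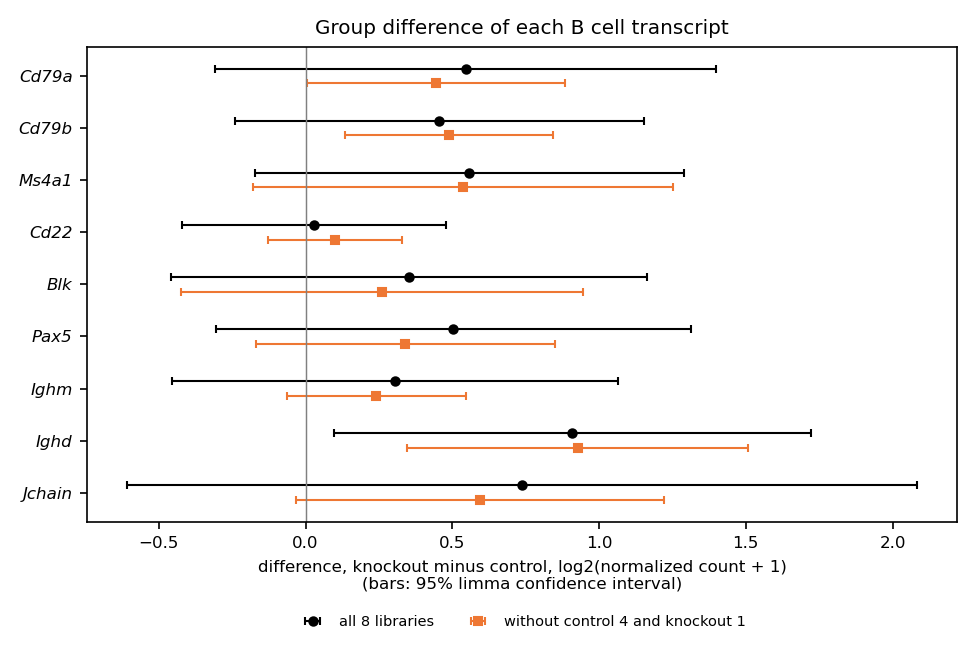
Difference between groups for each B cell transcript (horizontal axis, knockout minus control of log2(normalized count + 1)) with its 95% limma interval, from all 8 libraries (black circles) and without control replicate 4 and knockout replicate 1 (orange squares). The points from all 8 libraries run from 0.03 (Cd22) to 0.91 (Ighd), and none passed the adjusted threshold. The libraries left out for the orange squares were chosen as the highest of their groups, which narrows those intervals by construction.

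In the authors' deposited table, which gives control over knockout and so the opposite sign, the log2 fold change of Ighd was -0.91 with an adjusted p of 0.0910. The authors' deposited table gave -0.91 for Jchain (adjusted p = 0.498), -0.63 for Cd79a, -0.62 for Pax5, -0.53 for Ms4a1 and -0.45 for Blk. For Cd79b it gave -0.43, for Ighm -0.34 and for Cd22 -0.00 in the authors' deposited table. No adjusted p of the 9 in that table was below 0.0910.

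Levels can be compared between genes only per length. Per kilobase of the longest annotated transcript, the mean normalized count over the 8 libraries was 6951 ± 3147 (SD) for Ighm. Cd22 followed with 449 ± 105, Jchain with 387 ± 357, Cd79b with 199 ± 80.2, Cd79a with 164 ± 91.8 and Ighd with 134 ± 72.2. At the low end were Ms4a1 with 54.8 ± 21.3, Blk with 23.8 ± 10.6 and Pax5 with 20.3 ± 10.8. All neighbours in this order from Cd22 down to Pax5 overlapped in their ranges over libraries, while the lowest Ighm value (4036) exceeded the highest Cd22 value (649) and the highest Jchain value (1211). On the same scale Adgre1 stood at 13572 and Csf1r, the growth factor receptor of macrophages, at 11803. Lck, a kinase of T cells, stood at 51.9 per kilobase. Transcript use was not resolved, so an order based on the longest transcript is approximate.

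The B cell transcripts varied more between libraries of a group than most genes. Their within-group SD of log2 values ran from 0.34 (Cd22) to 1.03 (Jchain), beside a median of 0.15 over all genes tested. Between the lowest and the highest of the 8 libraries, Cd22 differed 1.84-fold and Jchain 8.77-fold. Control replicate 2 was the lowest library for 7 of the 9, control replicate 3 for Cd79a and knockout replicate 3 for Blk. Knockout replicate 1 was the highest for 8 of 9. Relative to each gene's mean over the 8 libraries, the median of the 9 was 0.739, 0.581, 0.689 and 1.25 in control and 1.96, 1.00, 0.776 and 0.943 in knockout libraries. Within each group the leading library thus stood above the 3 others, which differed less among themselves.

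Across the 8 libraries, Pearson correlations of log2 values within the 36 pairs of the 9 ran from 0.59 to 0.97, with a median of 0.88. The lowest without Cd22 was 0.77. These describe 8 libraries that share RNA, depth and scaling. Against the mean standardized pattern of the 9, Jchain and Cd79b were closest (0.98 and 0.99) and Cd22 farthest (0.83). Each of the 9 is itself part of that mean, which raises its value, whereas genes outside the list are not. The 5 genes outside the list with the most similar pattern included Ly6d (0.99), Btla (0.99), Igkc (0.98) and Pou2af1 (0.97). Ly6d marks lymphoid progenitors and B cells, Btla is an inhibitory receptor of lymphocytes, Igkc is the kappa light chain constant gene and Pou2af1 is a B cell coactivator of octamer-binding factors. Igkc measured 2204, 1079, 1427 and 5061 in control and 9319, 2143, 1667 and 2748 in knockout libraries (difference 0.60, SE 0.60, limma adjusted p = 0.611).

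Among the lists of other cell types, the T cell markers stood highest in the same libraries most often. Of the 14 T cell markers, 12 were highest in control replicate 4 among controls and in knockout replicate 1 among knockouts, beside 10.2% of all genes. The median relative level of the 14 was 0.441, 0.611, 0.575 and 1.18 in control and 2.02, 1.18, 1.03 and 0.871 in knockout libraries. Their summed counts ran from 5315 to 6743 in control and from 4984 to 5326 in knockout libraries, most of it from Il7r, the interleukin-7 receptor (controls 4630 to 6094, knockouts 2841 to 4329). Of the 7 NK cell markers, 1 followed both libraries, and their sum ran from 131 to 271 in control and from 233 to 511 in knockout libraries. The 7 plasmacytoid dendritic cell markers, which include Ly6d, had 2 such genes, with sums of 7077 to 8243 and 7652 to 8692. Among 7 dendritic cell markers there were 0 (sums 10889 to 16357 and 17764 to 24363), among 5 neutrophil markers 1 (995 to 1938 and 1071 to 1774) and among 6 fibroblast markers 0 (90823 to 154537 and 123576 to 192812). Of the 6 endothelial markers, 4 were highest in knockout replicate 1 among knockouts and 0 in control replicate 4 among controls, with sums of 36847 to 67109 and 60053 to 85051. No marker measured in these lists was at 1 read, the lowest value in the table, in every library. The part of other cell types in the levels of the B cell transcripts was not tested.

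The macrophage markers went another way. Of 8, 4 passed the test and all 4 fell in knockout, as did 2.38% of all genes: Csf1r (-0.45), Cd68 (-0.41), Itgam (-0.47) and Mpeg1 (-0.81). In the 8 leave-one-out fits the Itgam call always held. The Csf1r call held only without control replicate 2 (differences from -0.50 to -0.39), and did not hold when each library was scaled to the same total (limma adjusted p = 0.0594). The Cd68 call did not hold without control replicate 3, knockout replicate 1 or knockout replicate 4 (-0.45 to -0.38), nor the Mpeg1 call without knockout replicate 1 (-0.88 to -0.70). The median relative level of the 8 was 1.20, 0.992, 1.07 and 1.27 in control and 0.811, 0.879, 0.855 and 0.863 in knockout libraries. Control replicate 4 was thus the highest control for the macrophage list too, whereas knockout replicate 1 was the lowest knockout. The part of these shifts in the B cell transcripts was not tested.

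**Figure D3:**
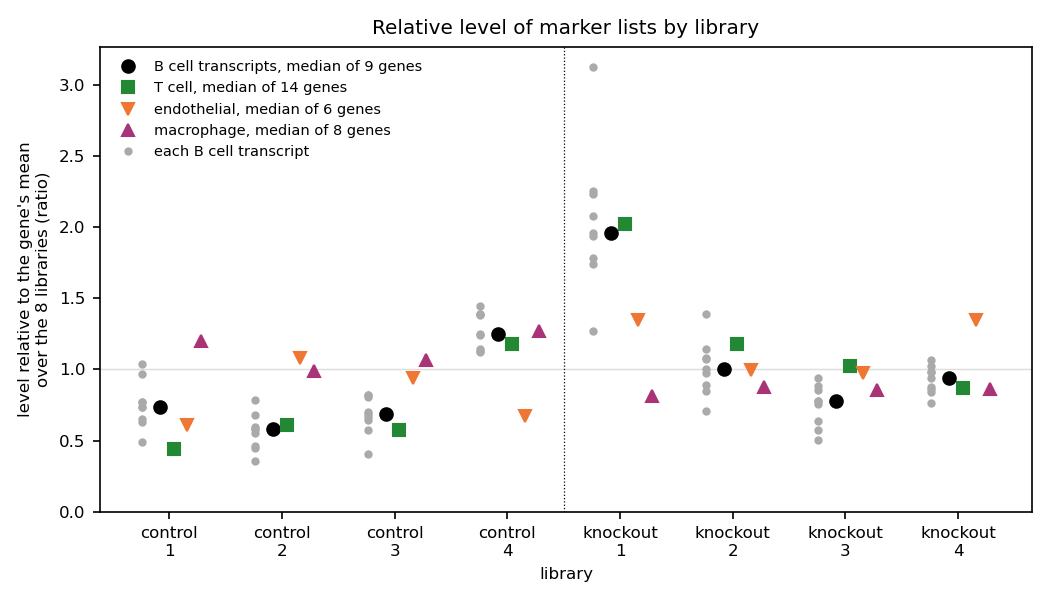
Level of each gene relative to its mean over the 8 libraries (vertical axis, ratio) by library (horizontal axis): grey points are the 9 B cell transcripts and larger symbols are medians of the B cell, T cell, endothelial and macrophage lists. The B cell and T cell medians are both highest in knockout replicate 1 (1.96 and 2.02), where the macrophage median is 0.811.

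The other heavy chain constant genes show which antibody classes accompany IgM. Ighm made up 75.5% to 89.7% of the summed normalized counts of 7 heavy chain constant genes in control and 66.5% to 80.9% in knockout libraries. Counts were not divided by length here, and the longest annotated transcripts differ (1698 bases for Ighm, 2540 for Igha, 1214 for Ighg2c). The shares can be compared between libraries, but do not give the relative amounts of the classes. Igha, the IgA chain, took 8.32%, 12.3%, 6.51% and 17.3% in control and 22.5%, 13.8%, 13.5% and 12.6% in knockout libraries. Its own count was 870, 1008, 705 and 3760 in control and 7823, 1886, 1527 and 1616 in knockout libraries (difference 0.99, SE 0.64, limma adjusted p = 0.417). The control library with the highest Igha lay above 3 of the 4 knockout libraries. Ighg1, an IgG chain, measured 3.27, 5.08, 35.2 and 118 in control and 191, 114, 54.2 and 164 in knockout libraries. The groups overlapped, and its difference of 2.70 (SE 0.98, limma adjusted p = 0.167) rests on a few reads in control replicates 1 and 2. Ighg2b measured between 73.9 and 511 in control and between 184 and 974 in knockout libraries (1.25, SE 0.63, adjusted p = 0.295). The IgG constant genes are related in sequence, and how far reads are shared between them was not tested.

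Relative to Ighm, Ighd was higher in each knockout than in each control library. For every 100 counts of Ighm there were 1.36, 1.57, 1.74 and 1.70 of Ighd in control and 2.18, 3.19, 2.33 and 2.11 in knockout libraries. The log2 ratio differed by 0.60 and the groups did not overlap, although knockout replicate 2 accounts for the highest value. Of the 15861 other genes tested, 0.107% were higher relative to Ighm in every knockout than in every control library, and for 0.725% the groups did not overlap in either direction. These shares depend on the wide spread of Ighm itself, highest in knockout replicate 1. They therefore do not show how rare such a split is among genes that vary with Ighm. An exact two-sided permutation test was run on all 36 ratios among the 9 genes, and 2 (5.56%) had groups that did not overlap. The other was Ighd relative to Cd22 (0.88). Both had p = 0.0286, the smallest that 4 against 4 allows, and 0.411 after adjustment over the 36 in this exact test. The 36 ratios share genes, these were singled out after their values were seen, and neither passed the adjustment.

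**Figure D4:**
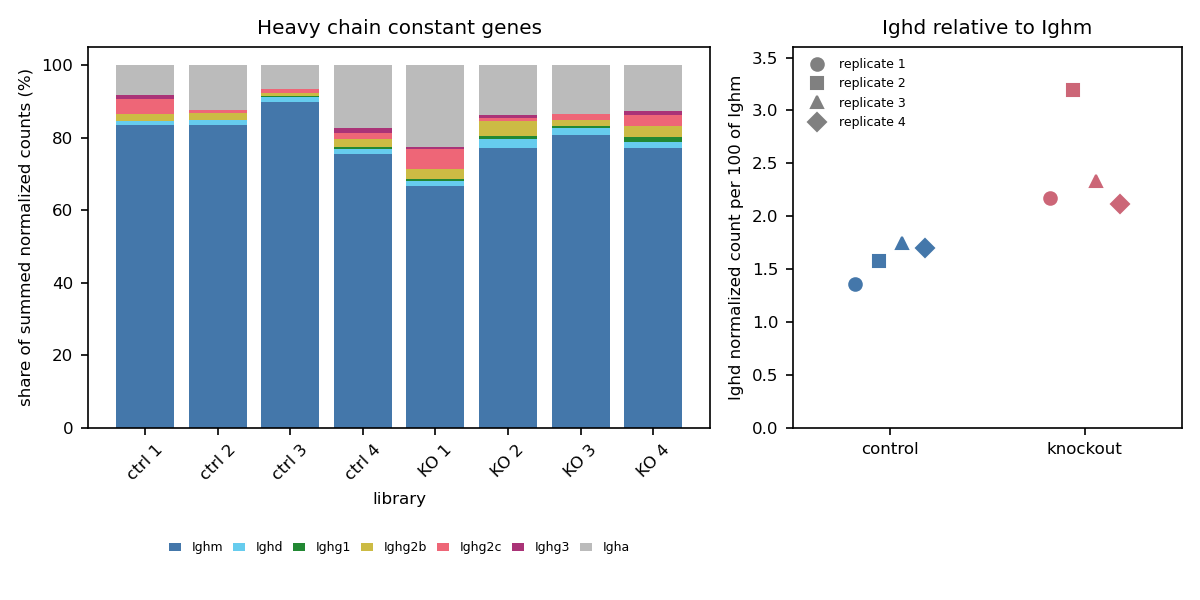
Left, share of each heavy chain constant gene in their summed normalized counts, not divided by transcript length (vertical axis, percent), for each library. Right, Ighd normalized count per 100 of Ighm by group, with a symbol for each replicate: the 4 control libraries lie between 1.36 and 1.74 and the 4 knockout libraries between 2.11 and 3.19.

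The variable gene segments listed in the table, looked at after the values above were seen, show how many antibody genes lie behind these counts. The 54 heavy chain variable genes summed to between 580 and 5253 per library. The most abundant one held 8.08% to 11.2% of that sum, so no single heavy chain gene dominated a library. The 59 kappa variable genes summed to between 1155 and 7853, and the most abundant one held 9.15% to 32.3%. The highest share belonged to Igkv3-2 in control replicate 4, with 1361 there and 75.2 to 981 in the other libraries. Among controls, control replicate 4 was the highest library for 38 of the 54 heavy and 38 of the 59 kappa genes. Among knockouts, knockout replicate 1 was the highest for 44 and 50. Of the 2 lambda genes, 1 was highest in control replicate 4 among controls and 2 in knockout replicate 1 among knockouts. Many segments were thus highest in 1 or the other of these libraries. The share over all genes for each library alone was not counted. Variable genes are similar in sequence, and reads may be split between them.

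The other B cell surface genes gave 22 measured genes, of which 0 rose and 1 fell, near the 3.61% of all genes called. That gene was Cd72, a receptor of B cells and macrophages that inhibits B cell signalling. It measured 5924, 5452, 5455 and 8008 in control and 3383, 3326, 4103 and 3544 in knockout libraries. The groups did not overlap (difference -0.78, SE 0.13, limma adjusted p = 0.0166), and the call did not hold without knockout replicate 1 or without knockout replicate 4 (-0.84 to -0.65 over the leave-one-out fits). Cd38, an ectoenzyme of many leukocytes, was at 0.30 (SE 0.08, adjusted p = 0.0681), and Cd37, the most abundant gene of this list and a leukocyte tetraspanin, at -0.24 (adjusted p = 0.132). At an unadjusted p under 0.05 there were 5 of 22 (2 higher, 3 lower), near the 21.2% of all genes. Across the list the median difference was 0.40, and 16 of 22 were highest in both control replicate 4 and knockout replicate 1 within their groups, beside 10.2% of all genes.

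Of 16 B lineage transcription factors, 0 rose and 2 fell, beside 1.24% and 2.38% of all genes. At an unadjusted p under 0.05 there were 8 of 16 (3 higher, 5 lower), beside 21.2% of all genes. Mef2c, which also acts in myeloid cells, measured 4145, 4516, 4473 and 4114 in control and 3070, 3088, 3212 and 3192 in knockout libraries. The groups were well apart (-0.46, SE 0.05, limma adjusted p = 0.00357), and the call held in all 8 leave-one-out fits. Bcl6, a repressor used by germinal centre B cells and macrophages, fell by 0.49 (SE 0.09, adjusted p = 0.0263), a call that held in those fits only without control replicate 2 (-0.57 to -0.43). Spi1, which encodes PU.1 and is the most abundant of the list, was at -0.21 (adjusted p = 0.107). The list's median difference was 0.11, and 6 of 16 followed both libraries, beside 10.2% of all genes.

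Of 22 B cell receptor signalling genes, 0 rose and 4 fell, with a median difference of -0.24 beside 0.50 for the 9 B cell transcripts. Over all genes 1.24% rose and 2.38% fell. At an unadjusted p under 0.05 there were 14 of the 22, 13 of them lower, beside 21.2% of all genes. Prkcb, a protein kinase C that couples the receptor to NF-kappaB, measured 2628, 2536, 2257 and 2761 in control and 1313, 1286, 1115 and 1139 in knockout libraries. No knockout value came near the control range (-1.07, SE 0.08, limma adjusted p = 0.000893), and the call held in all 8 leave-one-out fits. Malt1, the protease of the same route, fell by 0.26 (SE 0.04, adjusted p = 0.0160). Blnk, the adaptor downstream of Syk, fell by 0.45 (SE 0.10, adjusted p = 0.0395). Ptprc, the phosphatase CD45 of all leukocytes, fell by 0.41 (SE 0.09, adjusted p = 0.0432). When each library was left out in turn, the Blnk call held only without control replicate 1 (-0.49 to -0.36) and the Ptprc call only without control replicate 2 (-0.47 to -0.35). The Malt1 call did not hold without control replicate 3 (-0.27 to -0.25). Scaling each library to the same total lost the calls of Blnk (adjusted p = 0.0604) and Malt1 (adjusted p = 0.0569). Syk, the most abundant, was at -0.28 (adjusted p = 0.103). These genes are also expressed by macrophages. Correlations with the pattern of the 9 over the 8 libraries were -0.29 for Prkcb, -0.40 for Malt1, -0.60 for Blnk and -0.23 for Ptprc. These 4 were named for falling in knockout, where the 9 tended to be higher. That choice by itself lowers a correlation taken over both groups. The cells from which these transcripts came were not tested.

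The 11 plasma cell genes, most of them factors of the secretory pathway, had 0 calls and a median difference of -0.02. Over all genes 3.61% were called, and 0 calls in a list of 9 to 11 genes lies near that share. Fkbp11, a folding enzyme, was at 0.41 (SE 0.13, limma adjusted p = 0.118), Sec11c, a signal peptidase subunit, at -0.21 (adjusted p = 0.193) and Edem1, the most abundant, at -0.08 (adjusted p = 0.584). Of these 11, 3 followed both libraries, beside 10.2% of all genes. Their correlations with the pattern of the 9 over the 8 libraries ran from -0.78 (Sec11c) to 0.94 (Mzb1). Mzb1 was at 0.50 (limma adjusted p = 0.680), and 4 of the 11 differences were above 0. The median of this list therefore does not stand for each of its genes. The 9 measured immunoglobulin constant genes outside the B cell list had 0 calls, a median difference of 0.80 and 8 of 9 following both libraries. The 10 measured survival and attraction ligands had 0 calls and a median of 0.36. Cxcl12, a stromal chemokine that B cells respond to, was the most abundant of them at 0.37 (SE 0.14, adjusted p = 0.180), and Ltb, a lymphotoxin chain, was at 0.66 (adjusted p = 0.230). At an unadjusted p under 0.05 there were 3 plasma cell, 1 immunoglobulin constant and 2 ligand genes, beside 21.2% of all genes. By DESeq2 the calls over all 6 lists numbered 16 in place of 7. Over all 15862 genes the calls rose too, to 1557 by DESeq2 in place of 573.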

How the data were processed

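Poly(A)-selected libraries of F4/80-positive cells from adipose tissue were made by the authors, per the labels' protocols. FastQC, cutadapt, Salmon, DESeq2 and mm10 are named, without roles, per the submitters' processing notes. The authors deposited normalized gene counts, a signal in which values are whole reads times 1 factor per library. Within 0.01 reads, 100% of values came out whole. A DESeq2 comparison, also deposited, gives the mean signal per gene and, per the file headers, log2 fold changes with their standard errors, a test statistic (score) and p-values. Strand use in counting was not given in the sources used here.

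Groups came from the genotype label and replicate numbers from the titles. limma 3.58.1 (R 4.3.3) was run on log2(value + 1) with eBayes trend and no covariate over 15862 genes (mean of 10 or more), and was tested on simulated data. As the values are normalized, edgeR 4.0.16 and DESeq2 1.42.0 on the recovered reads were alternatives. Others were pseudocounts of 0.5 and 5, no filter or a mean of at least 50, 2 other scalings, the replicate block and leaving out each library. Leaving out control replicate 4 and knockout replicate 1 together was added after the data were seen. Differences on this scale understate changes of low genes. Pairs of libraries of 1 group differed by 8.86 or more in chi-square per gene, so all 8 were kept as separate samples.

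The genes and lists were chosen with earlier results of these data known. Named are all 9 genes, in each other B cell list the genes past the threshold, the most abundant gene and the 2 with smallest p, the 5 genes most like the pattern of the 9, Lyz2 and Adgre1. One gene that this rule names is not reported here. Macrophage genes past the threshold, Il7r, Igha, Lck, Mzb1 and the variable genes were named after their values were seen. Of the genes named in the lists, Vpreb3, Ighe, Cd40lg, Lta, Klk1, Ly6g and Retnlg were not measured. Coordinates are from GENCODE M21 on mm10. No set test was run.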

Additional observations from a re-analysis of the deposited data

Results flagged for a closer look

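In groups of 4, a library was singled out where its gap to the nearest other normalized count exceeded 0.829 of the group's range. For independent, normally distributed values, chance alone does this in about 1 in 20 groups. Here 28 groups of 14 genes were examined, which move together and are not independent. Of these groups, 8 stood out, 3 of them among the 9 B cell transcripts. Ly6d, Btla and Igkc were included because they follow the pattern of the 9, and Igha after its values were seen. The rule was applied to counts and not to log2 values. The number that stood out therefore cannot be set against 1 in 20.

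Knockout replicate 1 was far above the 3 other knockout libraries for Cd79b (509, next 280), Ighm (23143, next 10545) and Jchain (2836, next 795). The same library was far above the others for Ly6d (129, next 61.7), Igkc (9319, next 2748) and Igha (7823, next 1886). Control replicate 4 was far above the 3 other control libraries for Btla (145, next 72.0) and Igha (3760, next 1008).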

How the results depend on the processing

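The number of B cell transcripts called was 0 of 9 in all 18 alternatives, and the lowest adjusted p of any of them was 0.0910 (Ighd, DESeq2). At an unadjusted p under 0.05 the number ran from 0 to 3. The sign of a difference turned in 4 cases: Ighm was -0.00167 without knockout replicate 1, and Cd22 was -0.0730 without control replicate 2, -0.0609 without control replicate 3 and -0.0907 without knockout replicate 1. Without control replicate 4 they were 0.55 and 0.22. All other differences of the 9 stayed above 0. Leaving out 1 library moved Blk between 0.06 and 0.64, Pax5 between 0.16 and 0.76, Cd79a between 0.20 and 0.79, Cd79b between 0.22 and 0.72, Ms4a1 between 0.32 and 0.74, Jchain between 0.19 and 1.14 and Ighd between 0.65 and 1.18. Of these 7 genes, 6 were lowest without knockout replicate 1, and Ms4a1 without control replicate 2. Over all genes, 573 were called in the main test, 1557 by DESeq2, 163 (without control replicate 3) to 502 (without control replicate 2) when a library was left out, and 152 without control replicate 4 and knockout replicate 1. In the 6 other B cell lists 7 genes were called, 16 by DESeq2 and 3 to 8 when a library was left out (3 without control replicate 3, knockout replicate 1 or knockout replicate 4). Scaling to the same total moved the median difference of all genes from 0.00 to 0.06 and gave 245 higher and 244 lower calls in place of 196 and 377. With the replicate block 7 genes and 1 list gene were called. Same-numbered libraries had correlations of deviations from -0.293 to -0.0360, and no library correlated best with its own number. These correlations over all genes did not show a pairing by number, and they cannot exclude one. The cause of the changes between settings was not tested. Depth limits Blk most, at 30 to 122 reads per library.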
